A study of Mus musculus with 60 samples.

Results

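The last 2 times of trichostatin A (TSA) treatment, 24 and 36 h, were measured on 8 of the 60 arrays of the series, 4 at each time. The cells were HD-MEL cells, the mouse erythroleukemia line T-3-Cl-2-0.fl, which is labelled as highly inducible for differentiation. In the TSA groups the cells had received 30 nM TSA for 24 or 36 h. The groups set against them had received 5 mM hexamethylene bisacetamide (HMBA) or 1.5% dimethyl sulfoxide (DMSO) for the same times, and TSA at 1, 6 and 12 h was used to date the response. RNA from cells before any chemical was the other channel of every array, and no untreated culture of 24 or 36 h was labelled. Each of the 15 conditions had 4 technical arrays of 2 slides, with the treated RNA in the red dye Cy5 on replicates 1 and 2 and in the green dye Cy3 on replicates 3 and 4. The line has no labelled mutation or transgene.

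Erythroleukemia cells are red cell precursors held in proliferation by a leukemia virus, and inducers let them resume maturation, stop dividing and accumulate hemoglobin. TSA inhibits histone deacetylases, enzymes that remove acetyl groups from histones and so tend to close chromatin, and it is a known inducer of these cells. HMBA and DMSO are older inducers of the same line of cells and are not histone deacetylase inhibitors of that kind. The spots are cDNA clones, named by plate, row and column of a clone library. None of the identifiers could be paired with a gene (0 matched the tables used here), so erythroid markers could not be checked and no pathway is named. Several clones can stand for the same gene. In bulk RNA, fewer cells of a type and less RNA per cell cannot be told apart.

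All values are log2 ratios of intensity after over before treatment, where 1 is a doubling. A condition value is the mean of both dye orientations, each the mean of its arrays. Between 18287 and 19347 clones were present per array, and the 14582 clones present on no fewer than 3 arrays in each condition of the series were tested. Arrays of the same dye orientation correlated across clones at r between 0.197 and 0.607, and arrays of opposite orientation between -0.07 and 0.29. Because of this dye effect, a clone was counted as moving the same way only if both orientations had a mean of at least 1 in size with 1 sign. At 24 h 114 clones (0.782%) were higher and 52 (0.357%) lower by this rule, while 154 clones passed the same size with opposite signs in the 2 orientations. Of those 154, 152 were low with the treated RNA in Cy5 and high in Cy3. At 36 h 115 (0.789%) were higher and 46 (0.315%) lower, against 31 of opposite sign.

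Of the 14582 clones, 82 were higher and 20 were lower in both orientations at both times, which is 0.562% and 0.137% of the clones tested, and 1 clone followed the dye at both times. These 102 clones are described below as the higher and the lower clones. They were chosen by their TSA values at 24 and 36 h, so those values are a description. The nearest clone inside the limit had an orientation mean of 1.01 and the nearest outside 1.00 on the higher side, and -1.02 and -0.99 on the lower side. All 82 higher and all 20 lower clones had the same sign on every array that listed them. For 68 of the higher clones each single array was at 1 or above, and for 15 of the lower clones each was at -1 or below. The array medians of the higher clones were 1.83, 1.81, 2.07 and 1.69 at 24 h, and 2.45, 2.17, 2.35 and 2.52 at 36 h. The array medians of the lower clones were -1.60, -1.69, -1.57 and -1.66 at 24 h, and -1.56, -1.50, -1.54 and -1.55 at 36 h. By these medians the arrays lay close together within a time, the higher clones stood farther from before treatment on each of the 36 h arrays than on any of the 24 h arrays, and the lower clones hardly moved.

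**Figure D1:**
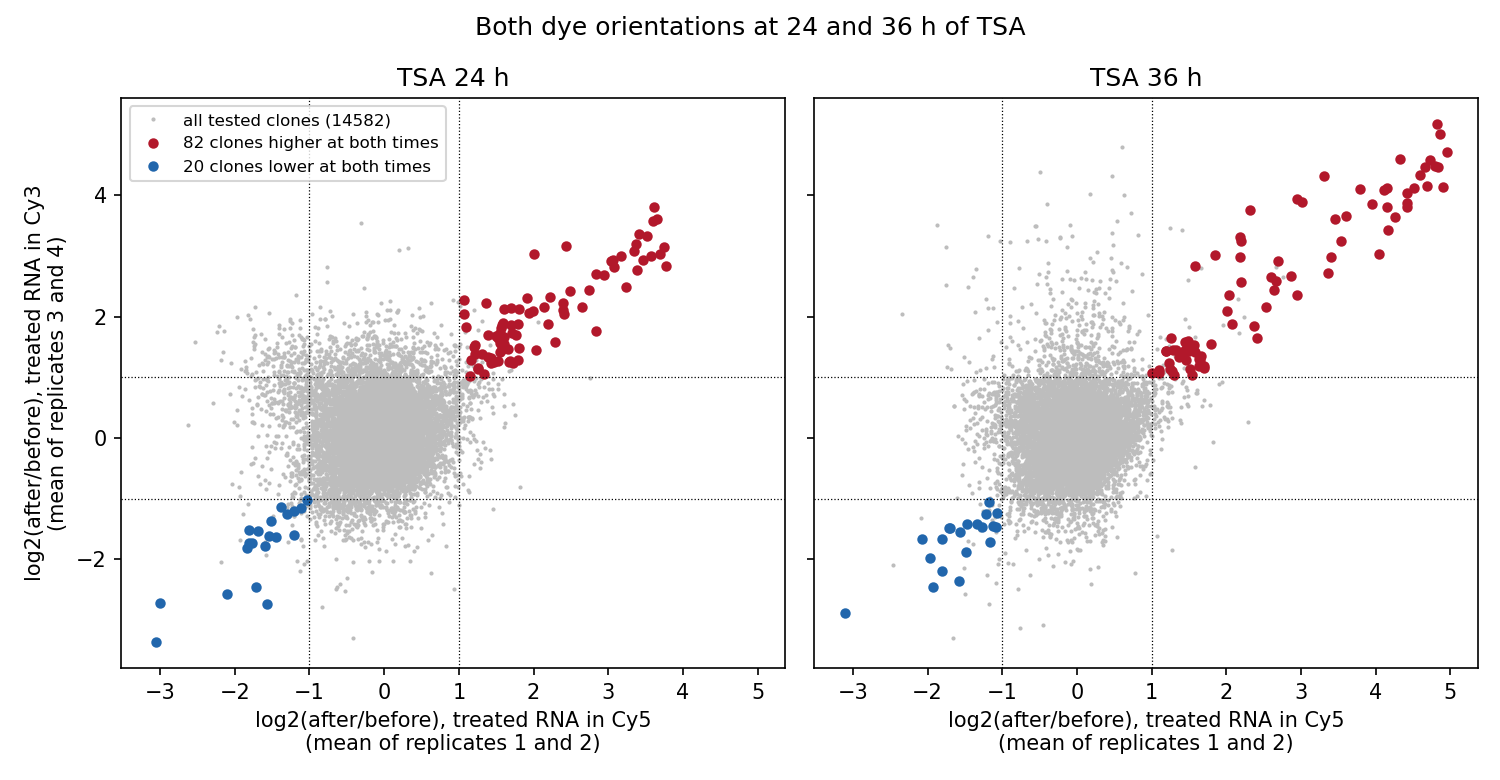
Each point is a clone, with the log2 ratio after over before TSA on the arrays with treated RNA in Cy5 (x axis) and in Cy3 (y axis), at 24 h and at 36 h. The 82 higher and 20 lower clones pass 1 (dotted lines) in both orientations at both times, while the grey cloud at 24 h extends towards the upper left, where clones follow the dye.

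The limma model across the 15 condition values tested the mean of TSA 24 and 36 h against before treatment. It called 1074 clones at an adjusted p under 0.05 (7.37% of those tested), 524 higher by a median of 0.74 and 550 lower by a median of -0.70. Of the called clones, 360 of the 524 and 332 of the 550 had the same sign on every array of both times. The called clones included 73 of the 82 higher (3.59% of all tested clones were called higher) and 17 of the 20 lower (3.77% called lower), counts that share their values with the choice of these clones. At 24 h alone, 86 clones rose (0.59%) and 56 fell (0.384%), 0.974% called in all. At 36 h alone, 187 rose (1.28%) and 59 fell (0.405%), 1.69% called in all, and the arrays of that time had 1 sign for 152 of the 187 and 54 of the 59. The counts of the mean contrast were 651, 553, 360 and 2135 without replicates 1, 2, 3 and 4, so that every replicate moved them by more than 1.5 times, and 359 without the DMSO conditions. At 24 h they were 95, 77, 90 and 386 and at 36 h 126, 152, 62 and 803 without the same replicates. Each condition was 1 pair of RNA extracts measured on technical arrays. The p-values therefore cover the spread of condition values around the model, not that between cultures. The labels do not say if 1 before-treatment extract served all conditions. If so, its spread is not in the p-values.

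The 2 clones with the highest mean over both times were H3126A10 and H3140G04. They were named for that mean, so its size and p-value share their values with the choice. H3126A10 stood at 3.59, 3.63, 4.04 and 3.58 on the 24 h arrays and at 4.83, 4.80, 5.83 and 4.53 on the 36 h arrays. Every 36 h array lay above every 24 h array. Its condition values correspond to 13.1-fold at 24 h and 31.9-fold at 36 h over before treatment, and the mean over both times was 4.35 ± 0.49 (SE, limma adjusted p = 0.000673). H3140G04 stood at 3.40, 3.43, 3.78 and 2.95 at 24 h and at 5.01, 4.71, 5.50 and 4.51 at 36 h. Again the times did not overlap, with 10.5-fold at 24 h and 30.6-fold at 36 h and a mean of 4.16 ± 0.51 (SE, limma adjusted p = 0.0011). H3140G04 was called at 36 h alone but not at 24 h alone, while H3126A10 was called at each time. Neither clone was past 1 at an earlier time: H3126A10 had 0.59 and H3140G04 had 0.88 at 12 h. With the other inducers at 36 h, H3126A10 had 2.64 with HMBA and 1.14 with DMSO, and H3140G04 had 2.46 with HMBA and 0.95 with DMSO.

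The 2 clones with the lowest mean were H3035B01 and H3113A12. They too were named for that mean, with the same limit on its size and p-value. H3035B01 stood at -2.79, -3.33, -4.13 and -2.61 at 24 h and at -3.12, -3.10, -2.97 and -2.81 at 36 h, and the 2 times overlapped. Its mean was -3.11 ± 0.67 (SE, limma adjusted p = 0.0191). H3113A12 stood at -3.03, -2.96, -2.31 and -3.12 at 24 h and at -2.24, -1.92 and -1.66 on the 3 arrays of 36 h that listed it. All 24 h arrays were lower than all 36 h arrays, with a mean of -2.36 ± 0.51 over both times (SE, limma adjusted p = 0.02). Neither H3035B01 nor H3113A12 was called at 24 h alone or at 36 h alone. These clones were already low at 6 h of TSA, at -3.21 for H3035B01 and -2.70 for H3113A12. They were low with the other inducers too: at 36 h H3035B01 had -3.50 with HMBA and -2.09 with DMSO, and H3113A12 had -2.16 with HMBA and -1.88 with DMSO.

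The higher and lower clones departed from before treatment at different times. TSA at 1, 6 and 12 h was not used to choose them. The higher clones had medians of -0.11, 0.11 and 0.44 at 1, 6 and 12 h, then 1.79 at 24 h and 2.49 at 36 h. Only 8 of the 82 were at 1 or above at 12 h, and 73 first reached 1 at 24 h. The lower clones had medians of -0.21, -1.01 and -1.32 at 1, 6 and 12 h, then -1.64 at 24 h and -1.58 at 36 h. Among these 20 clones, 4 were at -1 or below at 1 h, 10 at 6 h and 17 at 12 h. No test was run on the condition values at these times.

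DMSO and HMBA values, which the choice did not use either, divided the higher clones. The limits that follow were set after the values were seen, so the groups are described with no test. In 22 clones the ratio was at least 2 with HMBA at 36 h. In 21 others it was at most -1 with DMSO at 24 h. The remaining 39 met neither limit. It is not known from the labels if 1 extract before treatment served all conditions. The DMSO arrays also had another distribution of clones over the 2 slides, so slide layout and DMSO cannot be told apart.

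The 22 clones that were high with HMBA at 36 h had the highest medians of the 3 groups with TSA. All 22 were on H3 plates, and 17 of them lay on plates H3121 to H3126, which hold 53 to 77 tested clones each. On the slide that also carries the H4 plates lay 18 of the 22. That slide holds 51.2% of the tested clones, but 2416 of the 9529 tested clones on H3 plates. Their TSA medians at 6, 12, 24 and 36 h were 0.47, 0.70, 3.21 and 4.27. The HMBA medians at the same times were -1.51, -1.04, -0.25 and 2.64, and 20 of the 22 were at -1 or below with HMBA at 6 h, against 0 of the 22 with TSA. With DMSO the median was -0.33 at 6 h, 0.31 at 24 h and 1.36 at 36 h. By their medians these clones were high 1 time point earlier with TSA than with HMBA, an order that follows in part from their choice. High values with TSA at 24 h and with HMBA at 36 h were required of them. Their HMBA values at 24 h were not used, and 1 of the 22 was at 1 or above there. A lead in time was not tested. The lowest value among the 22 at any time of TSA was -0.38, at 1 h. For 20 of the 22 every 36 h array of TSA lay above every 24 h array (1.93% of all tested clones), and 1 clone went the other way, with 2.23 at 24 h and 1.17 at 36 h. H3126A10 and H3140G04 belong to this group.

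The 21 clones that were low with DMSO at 24 h had a median of 1.49 with TSA at 24 h and 1.43 at 36 h, with no median change (-0.07). Their DMSO medians at 6, 24 and 36 h were -1.53, -1.88 and -1.63. With HMBA they were -1.54 at 6 h and 0.02 at 36 h. At 6 h of TSA, none of the 21 was at -1 or below and the median was -0.31. This group had the brightest spots before treatment, with a median intensity of 4472, against 1187 for the 22 clones high with HMBA and 869 for all tested clones. The 21 lay on 17 plates. All 21 were called higher with TSA than with DMSO over both late times (1.1% of all tested clones), a count to which the choice on both sides leads.

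The remaining 39 higher clones had a median of 1.74 with TSA at 24 h and 2.43 at 36 h. Their medians at 36 h were 0.29 with HMBA and -0.07 with DMSO, and at 24 h -0.16 with HMBA and -0.13 with DMSO. Single clones lay higher: 6 of the 39 were at 1 or above with HMBA at 36 h and 8 with DMSO at 36 h. In 9 of them the value was within 0.5 of 0 in both late conditions of DMSO and of HMBA. Those 9 had medians of 1.79 at 24 h and 2.77 at 36 h with TSA. Of the 9, 4 were on plate H3118, in adjacent wells of row A, and 1 was in row C of plate H3114. With TSA at 36 h the median over all tested clones was 1.05 in the row on H3118 and 1.00 in the row on H3114; at 24 h these medians were 0.11 and 0.12. The part of these row shifts in the values of the 9 was not tested.

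**Figure D2:**
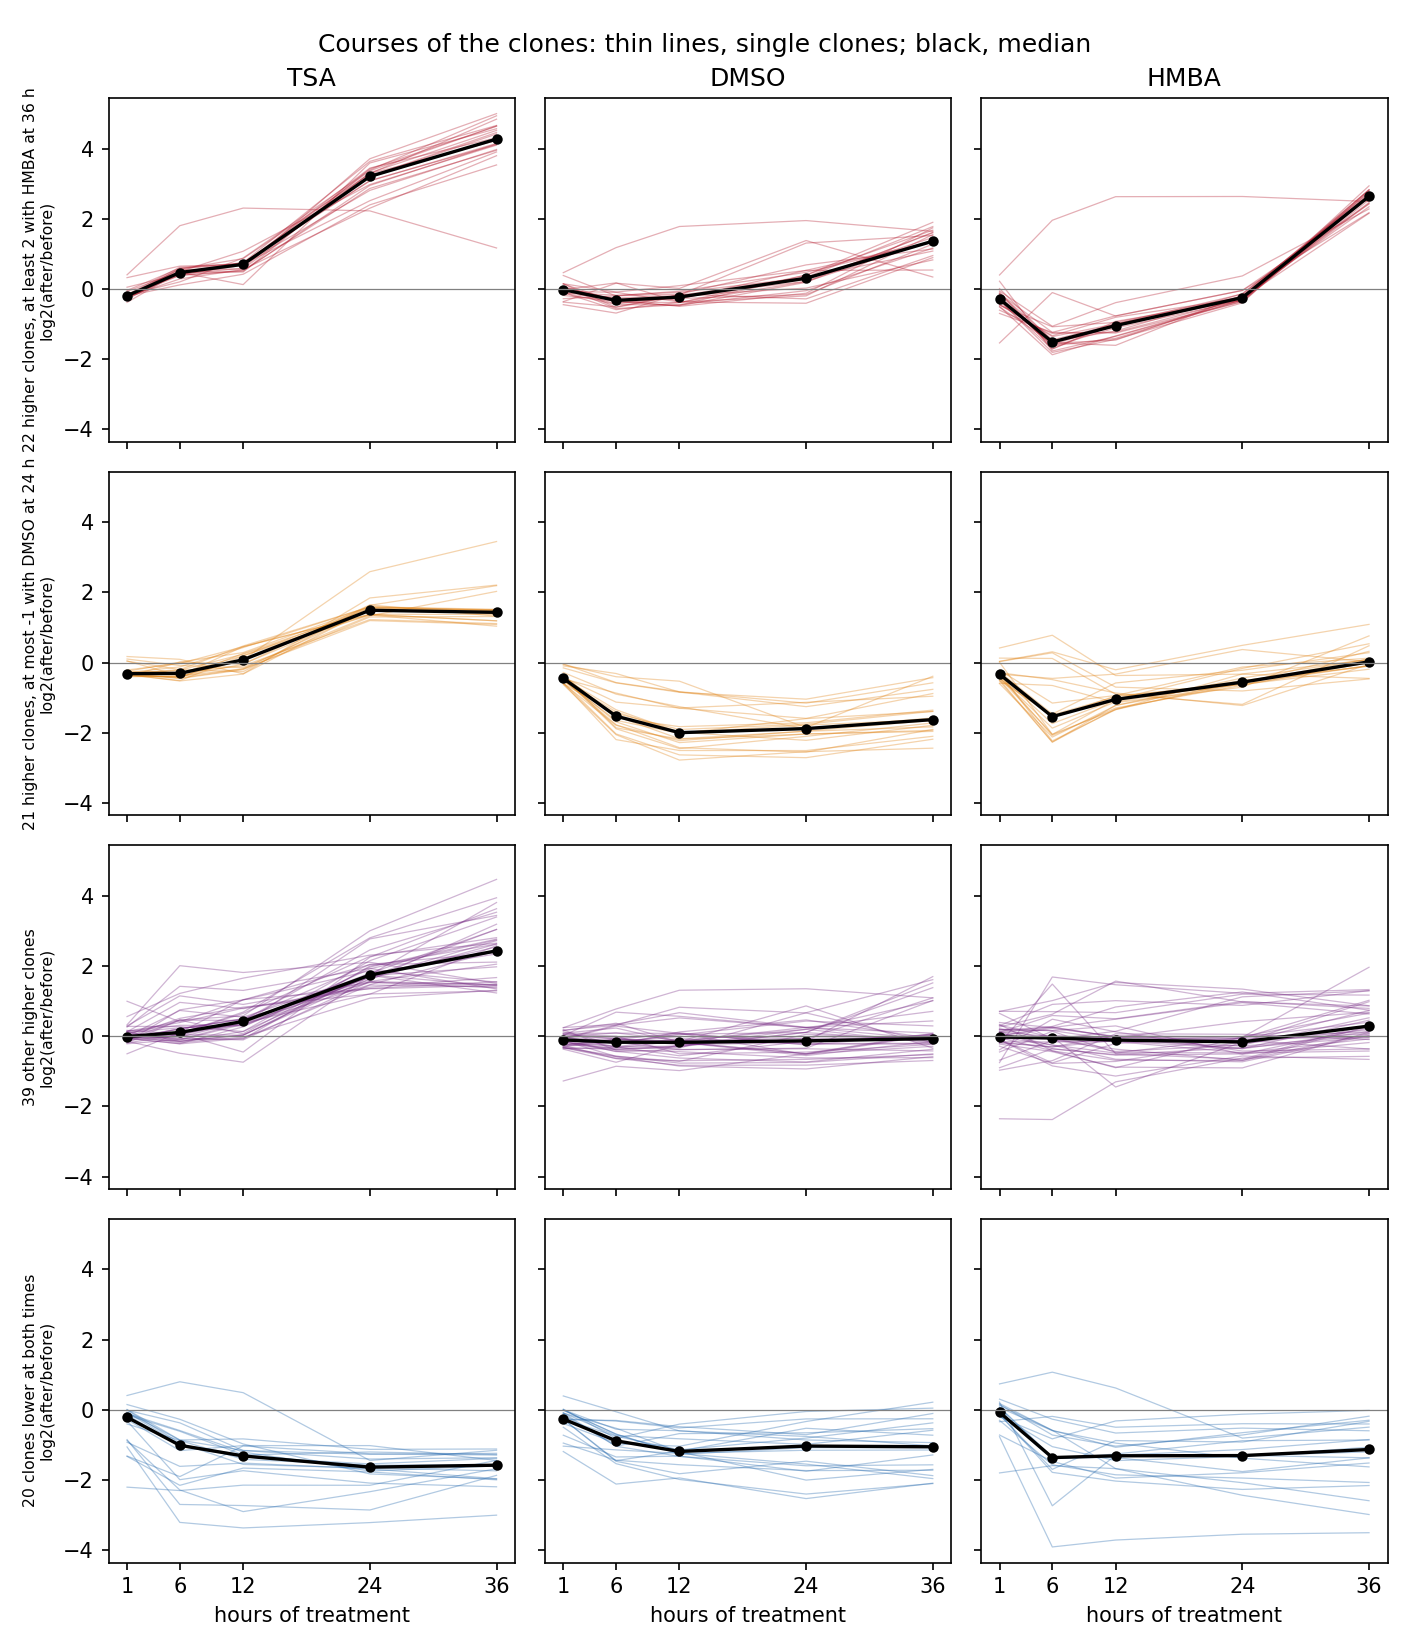
Log2 ratio after over before treatment against hours of treatment, for 3 groups of higher clones and for the lower clones (rows) with TSA, DMSO and HMBA (columns); thin lines are clones and the black line is their median. With TSA the medians of the 3 groups of higher clones, from the top row down, are 0.70, 0.08 and 0.42 at 12 h. At 24 h they are 3.21, 1.49 and 1.74. The clones in the top row dip with HMBA to a median of -1.51 at 6 h. Those in the second row stay low with DMSO, with -1.88 at 24 h.

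The contrast of both late TSA conditions with the late DMSO conditions called 161 clones higher and 62 lower with TSA (1.53% called). The 161 had medians of 1.03 at 24 h and 1.13 at 36 h with TSA, against -0.50 and -0.34 with DMSO. Against late HMBA 161 were called higher and 197 lower with TSA (2.46% called). The 197 had medians of -0.42 and -0.39 with TSA, against 0.55 and 0.59 with HMBA. Of the 82 higher clones, 57 were called above DMSO (1.1% of all tested clones) and 35 above HMBA (1.1%), counts that share the TSA values with the choice of the clones. Of the 20 lower clones, 2 were called below DMSO (0.425% of all) and 2 below HMBA (1.35%). Both contrasts share the TSA conditions. H3126A10 and H3140G04 were named for their TSA mean, which enters both contrasts. Their sizes and p-values here therefore share values with the choice. H3126A10 was above DMSO by 3.44 (limma adjusted p = 0.0318) and above HMBA by 3.21 (adjusted p = 0.0379). H3140G04 was above DMSO by 3.83 (limma adjusted p = 0.024), and its difference from HMBA was 3.04 (adjusted p = 0.0505), which did not pass. Without replicate 3 the counts of called clones were 89 against DMSO and 34 against HMBA. Without replicate 4 they were 373 against DMSO and 1125 against HMBA, and without replicates 1 and 2 those against HMBA were 194 and 118. The HMBA count was 828 without the HMBA 1 h condition, whose 2 Cy3 arrays correlated at -0.32 and whose direction is not settled.

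Many of the lower clones were low in all 3 treatments: 10 of the 20 were at -1 or below with DMSO and with HMBA at both 24 and 36 h. Over all 20 the TSA median at 36 h was -1.58, against -1.13 for HMBA and -1.05 for DMSO. The TSA median at 6 h was -1.01, against -1.36 for HMBA and -0.88 for DMSO. In the 9 lower clones above -1 with HMBA at 36 h, TSA gave a median of -1.44 at both 24 and 36 h, against -0.72 and -0.41 with HMBA and -0.66 and -0.37 with DMSO. The lower clones each lay on a plate of their own.

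The higher clones were not spread evenly over the library. They lay on 46 of 238 plates, with 8 on plate H3118 and 6 on H3122, and 80 of the 82 were on plates whose names begin with H3, which hold 65.3% of the tested clones. A higher clone in an adjacent well was found for 15 of the 82 (18.3%), against 0.658% of all tested clones. On plate H3122 the wells 8 to 12 of row H were all higher clones, with values between 2.40 and 3.45 at 24 h and between 3.53 and 4.31 at 36 h, while well 7 had 0.29 at 24 h and 0.33 at 36 h. The other tested neighbours of higher clones, 81 in number, had a median of 0.07 over both times. After the median of each plate row was removed on each array, 75 higher and 22 lower clones passed the rule, and 78 of those 97 were among the 102. The higher clones themselves enter the medians that were removed, as wells 8 to 12 do in row H of H3122. Their part in the clones lost was not tested. Whether adjacent wells hold the same gene was not tested.

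**Figure D3:**
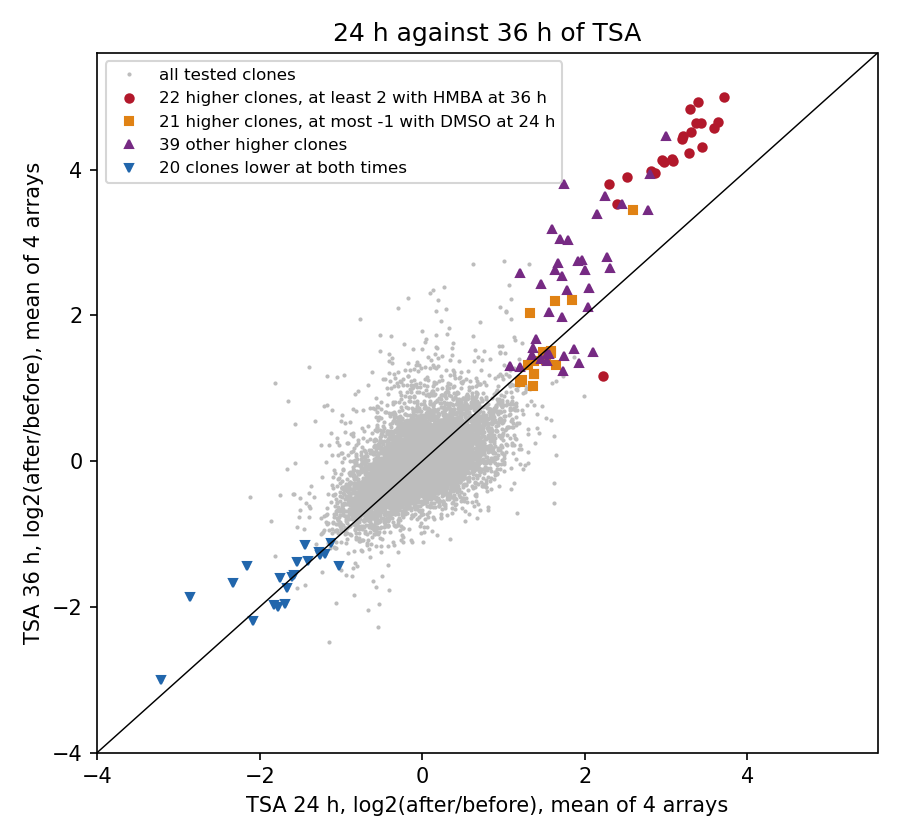
Condition values of TSA at 24 h (x axis) and 36 h (y axis), in log2 units after over before treatment, with the line of equal values. The 22 clones high with HMBA lie above the line except 1, at 2.23 and 1.17; the 21 clones low with DMSO lie mostly along it, and the 20 lower clones lie around it.

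Between 24 and 36 h the higher clones moved further up and the lower clones kept their level. Of the 82 higher clones, 57 had a higher value at 36 h than at 24 h, 51 in both dye orientations against 17 that were lower in both. The median of the difference, 36 h minus 24 h, was 0.59, against 0.00 over all tested clones. For 31 of the 82 every 36 h array lay above every 24 h array (1.93% of all tested clones), and for 3 every 36 h array lay below (1.54%). In the 22 clones high with HMBA the median difference was 1.17, in the 39 remaining 0.53 and in the 21 low with DMSO -0.07. The lower clones had a median difference of 0.02, with a range of -0.42 to 0.99, and 1 of the 20 had no overlap upwards and 1 downwards. Since these clones were chosen partly by their 36 h value, the differences are a description.

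By the size rule applied to the difference, 90 clones were at least 1 higher at 36 h and 23 at least 1 lower in both dye orientations (0.617% and 0.158%), against 57 of opposite sign in the 2 orientations. The arrays within a time disagreed widely for most of them. The 24 h array medians of the 90 were -1.27, -0.63, 1.63 and 0.05, and those of 36 h were 0.45, 0.36, 2.01 and 3.29. These were dim spots, with a median intensity before treatment of 354 for the 90 and 298 for the 23, against 869 for all tested clones. Only 30 of the 90 and 7 of the 23 had no overlap between the single arrays of 36 and 24 h (0.206% and 0.048% of tested clones). The median SD between arrays at 36 h was 0.33 in those 30 and 1.34 in the other 60. Choosing by overlap favours a small spread, so that contrast follows in part from the choice. The median intensity before treatment was 1196 in the 30 and 269 in the 60. Without replicate 4 the rule was passed by 55 clones in place of 113. The part of dim signal in the differences was not tested.

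The 30 clones without overlap ranged from -2.12 to 3.71 at 24 h. Of the 30, 17 were among the 82 higher clones and 13 of these had at least 1 with HMBA at 36 h. Another 8 were at least 1.5-fold lower than before treatment at 24 h. H4024C11, H3079F01 and H3112F01, not among the higher clones, had 1.00, 0.95 and 1.03 at 24 h. H4016C10 and H3009B04 lay near 0, at -0.13 and -0.17. The median over all 30 was 2.20 at 24 h and 3.71 at 36 h. Of the 7 that were lower at 36 h, 1 was among the higher clones, and the median over the 7 was 1.30 at 24 h and -0.15 at 36 h.

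**Figure D4:**
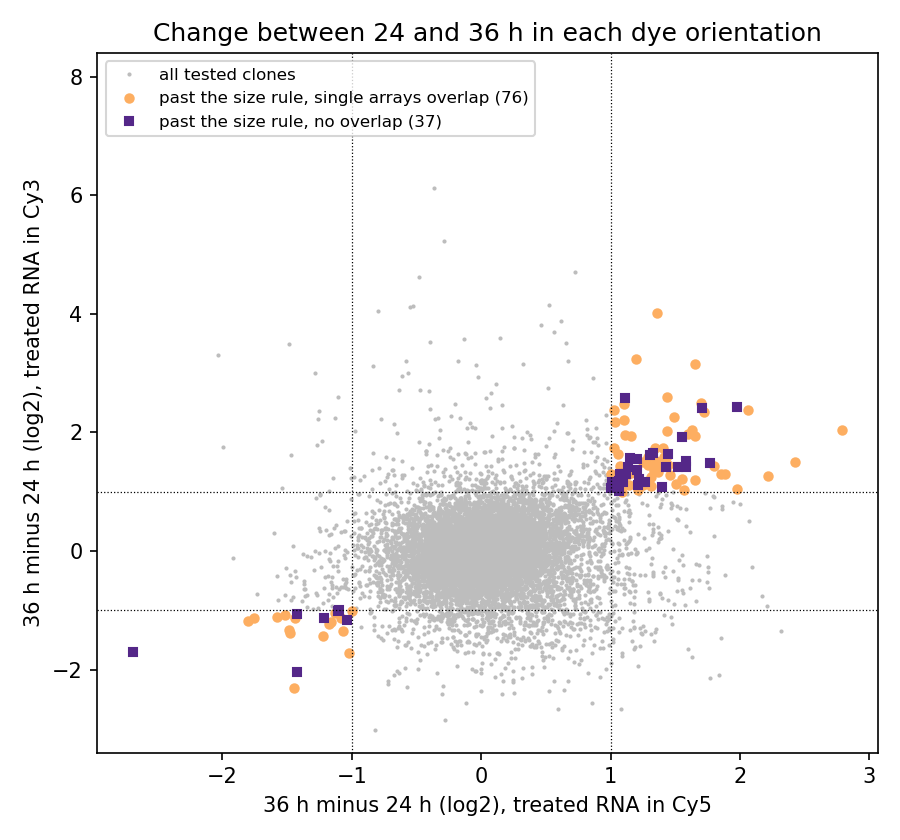
Difference 36 h minus 24 h of TSA in log2 units on the arrays with treated RNA in Cy5 (x axis) and Cy3 (y axis). The 37 clones past the size rule whose single arrays did not overlap (squares) are fewer than the 76 whose arrays overlapped (circles).

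In the limma model, the difference between 36 and 24 h was called for 2 clones, both higher at 36 h (0.0137% called), with 704 clones at an unadjusted p under 0.05. The 95% interval of the difference had a median half-width of 0.64. A single value per time enters this contrast, so its error comes from the spread in the other conditions. That spread includes change over time within the pooled times of DMSO, of HMBA and of TSA up to 12 h. The called clones were H3090E10, which also had the largest difference by the size rule, and H3118A05, named after its values were seen because the count was small. Without replicates 1, 2, 3 and 4 the count was 3, 4, 0 and 1. Of the 82 higher clones 1 was called, and of the 20 lower clones 0, with limma, the tool run here.

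H3090E10 stood at -2.68, -1.39 and -0.76 on the 3 arrays of 24 h that listed it, and at -0.16, -1.19 and 3.25 on 3 arrays of 36 h. The 36 h arrays disagreed in sign, and the high value was the only Cy3 array. The difference was 2.68 ± 0.22 (SE, limma adjusted p = 0.000868), while the SD between arrays at 36 h was 2.33, which the SE does not contain. On the Cy5 arrays alone the 36 h value was -0.68 and the difference 1.36 (adjusted p = 1). The 10 tested clones of its plate row had a median difference of 1.25, and with row medians removed its own was 1.05 (adjusted p = 0.452). Without the DMSO conditions the adjusted p was 0.0787.

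H3118A05 was one of the 82 higher clones. It stood at 1.94, 1.24, 2.69 and 1.11 at 24 h and at 3.52, 3.08 and 4.32 on the 3 arrays of 36 h that listed it, so that the times did not overlap. The difference was 2.06 ± 0.22 (SE, limma adjusted p = 0.00849). It was near 0 with the other inducers, with -0.02 with HMBA and -0.19 with DMSO at 36 h, and with TSA it had 0.03 at 12 h. All 12 tested clones of its plate row were higher at 36 h than at 24 h, by a median of 0.77. With row medians removed its difference was 1.01 (adjusted p = 0.161), on the Cy5 arrays alone it was 1.71 (adjusted p = 0.517), and without the DMSO conditions the adjusted p was 0.107. The part of the plate row in both calls was not tested further.

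The other 3 clones named for the size of their difference did not pass the test. H3114C08 stood at -1.54, -0.71, 1.90 and -0.38 at 24 h and at 1.69, 1.64, 2.33 and 3.29 at 36 h, with overlap through 1 array of 24 h. Its difference was 2.42 ± 0.39 (SE, limma adjusted p = 0.0638), in a plate row with a median difference of 0.85. H3095H02 stood at 1.64, 0.99, 1.12 and 2.73 at 24 h and at -2.19, -0.57, 0.31 and 0.13 at 36 h, without overlap. Its difference was -2.20 ± 0.38 (SE, limma adjusted p = 0.0971). H3099F06 stood at 0.26, -0.10 and 2.25 at 24 h and at -2.61, -0.12, -0.21 and 0.10 at 36 h, so that 1 array of each time set most of its difference of -1.88 ± 0.26 (SE, limma adjusted p = 0.0573). The intensities of these 3 clones before treatment lay between 144 and 296. By comparison, the difference of H3126A10 was 1.29, with a 95% interval of -0.84 to 3.41. That of H3140G04 was 1.54, with -0.68 to 3.77, and neither passed the test. With HMBA, H3126A10 went from -0.36 at 24 h to 2.64 at 36 h, and H3140G04 from -0.23 to 2.46. These changes enter the error of the test, with SEs of 0.97 and 1.02. The test therefore cannot show that the 2 clones were unchanged between 24 and 36 h of TSA.

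**Figure D5:**
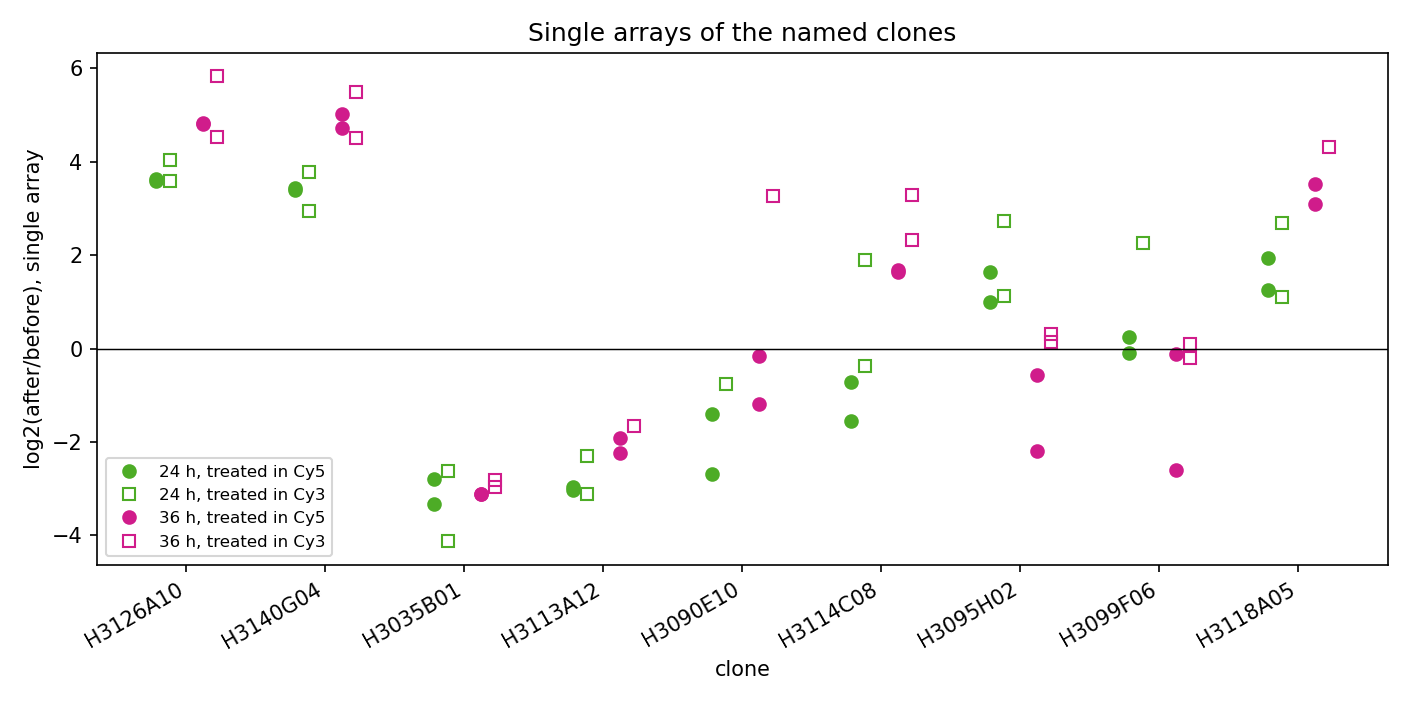
Log2 ratio after over before TSA on each single array for the 9 named clones, at 24 h and 36 h, with treated RNA in Cy5 (filled circles) and Cy3 (open squares). At 36 h the arrays of H3126A10 lie between 4.53 and 5.83 and those of H3140G04 between 4.51 and 5.50. Those of H3090E10 span -1.19 to 3.25 at 36 h.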

How the data were processed

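Before- and after-treatment RNA of each condition was hybridised to 2-colour cDNA arrays of 2 slides. The deposited files give linear spot intensities per clone, per the file headers, and the authors also deposited 1 linear ratio per clone and array; scanning, background correction and flagging are not given in the sources used here. The direction after over before was checked: the lowest intensities were higher in the labelled Cy3 channel on 16 of 16 slides of TSA at 24 and 36 h, and the deposited ratios of these 8 arrays correlated with the values used here at r between 0.948 and 0.992.

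Intensities were corrected with normexp (offset 50) and normalized by loess within slides (span 0.3) with limma 3.58.1 in R 4.3.3, then turned by dye and averaged within and over orientations. A limma model over 15 condition values had a mean for TSA 24 h, for TSA 36 h, for TSA up to 12 h, and for the times up to 12 h and from 24 h on of DMSO and of HMBA, with 8 residual degrees of freedom; the single TSA conditions are assumed to vary like the others. Benjamini-Hochberg adjusted p under 0.05 over 14582 clones is a call. The fit was also run on simulated data, whose outcome is not given here, so that run lends the calls no weight. Arrays number 4 per condition and limit the precision. Dye, normalization, filters, plate rows, replicates and conditions were varied. Clones named are the 2 highest and 2 lowest by mean among those past the size rule, and likewise by difference. Members and lists were chosen with earlier results of these data known.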

Additional observations from a re-analysis of the deposited data

Results flagged for a closer look

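Of 12 groups of 4 arrays of the clones named by rule, 2 held an array far from the other 3 (chance alone gives about 1 in 20 such groups). That rate need not hold here, since the groups mix 2 dye orientations and the clones were named for extreme values. H3126A10 had 4.04 on 1 Cy3 array of TSA at 24 h, where the other arrays lay between 3.58 and 3.63. H3099F06 had -2.61 on 1 Cy5 array of TSA at 36 h, where the others lay between -0.21 and 0.10.

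For 2 clones the difference between TSA at 36 and 24 h itself passed limma's test: H3090E10 with 2.68 and H3118A05 with 2.06 log2 units. The values of their single arrays and plate rows are given above, and no cause was tested.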

How the results depend on the processing

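The clones past the size rule in both orientations at both times, 102 in all, numbered between 88 and 96 without single replicates, but 203 on the Cy5 arrays and 357 on the Cy3 arrays alone, and 295 at a size of 1.5-fold. Past the size rule of the difference, 113 in all, the number was 55 to 131 without single replicates, 62 without the dimmest clones by mean intensity, 65 with plate-row medians removed, 451 on Cy5 and 1043 on Cy3 arrays alone, 481 at 1.5-fold, 2 where single arrays had to lie 1 apart and 37 where they must not overlap (added after the data were seen). The Cy5 and Cy3 settings lack the other orientation by construction; other causes were not tested. With no background correction this count was 68 higher and 31 lower, and with the deposited ratios 66 and 30, against 90 and 23.

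Calls without single replicates ranged from 360 to 2135 for the mean, 77 to 386 at 24 h, 62 to 803 at 36 h, 0 to 4 for the difference, 89 to 373 against DMSO and 34 to 1125 against HMBA. On the Cy5 arrays alone they were 627, 237, 57, 0 (315 at an unadjusted p under 0.05), 77 and 77 in that order, and on the Cy3 arrays alone 2551, 583, 929, 48 and 418, with the HMBA count within 1.5 times. Without the DMSO conditions, with fewer conditions in the fit, they were 359, 22, 73 and 0 (551 at an unadjusted p under 0.05), and 48 against HMBA. Without the 1 h conditions they were 472 at 24 h, 419 at 36 h, 4 for the difference, 378 against DMSO and 795 against HMBA. Without the HMBA conditions 278 were called at 24 h. Without the HMBA 1 h condition alone (added after the data were seen) they were 331 at 24 h, 335 against DMSO and 828 against HMBA. With plate-row medians removed they were 318 at 24 h (162 higher, 156 lower), 378 at 36 h (229 and 149), 6 for the difference and 388 against DMSO. With arrays scaled to 1 spread 437 were called at 36 h (288 and 149, against 187 and 59) and 16 for the difference (11 and 5). With late conditions only, 137 were called against DMSO. The difference had 6 calls with no background correction, 5 with median centring, 5 with deposited ratios, 8 with no filter, 1 without the dimmest clones by mean intensity and 11 with trend and robust settings. At 24 h, median centring gave 123 higher and 45 lower and no background correction 139 and 57, against 86 and 56; at 36 h no background correction gave 158 and 25. The other totals over both directions stayed within 1.5 times; counts of 1 direction could move further, as with the deposited ratios, where 33 were lower at 36 h against 59.

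The 36 h value of H3090E10 was -0.68 on the Cy5 arrays alone, against 1.29, the only named value to turn its sign across the test's threshold. No paired analysis was possible because the 4 numbered arrays of a condition are technical and were averaged to 1 value. No file gives a background or flag, so no filter on signal above background could be set.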
